A study of Mus musculus with 2 samples.

Results

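A set of 7 genes of glutamate handling, *Slc1a2*, *Slc1a3*, *Glul*, *Grik2*, *Grik3*, *Grid1* and *Gria4*, were followed across the cell types of the mouse dorsal root ganglion (DRG). They were taken by symbol, and each matched 1 of the 32285 genes in the count tables, so that all 7 of 7 genes were measured. The cells came from L4 and L5 DRGs of naive, uninjured female C57BL/6 mice of 3 months and fall into 1 group with 2 biological replicates, with no transgene, treatment or second condition. Ganglia were digested with papain and collagenase, live cells were sorted, and single-cell RNA sequencing (scRNA-seq) of 3′ ends counted unique molecular identifiers (UMIs), which stand for captured RNA molecules. How many animals went into a replicate is not stated in the sources used here.

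Sensory neurons of the DRG use glutamate as their transmitter, and their somata are each wrapped by satellite glial cells (SGCs). Extracellular glutamate is cleared by sodium-coupled transporters of the Slc1a family and is turned into glutamine inside glia by glutamine synthetase. Ionotropic glutamate receptors are assembled from subunits of the AMPA, kainate, NMDA and delta families. *Slc1a2* (GLT-1) and *Slc1a3* (GLAST) encode uptake transporters and *Glul* encodes glutamine synthetase. *Grik2* and *Grik3* encode kainate receptor subunits, *Grid1* encodes the delta receptor GluD1, and *Gria4* encodes an AMPA receptor subunit.

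The genes differ widely in extent in GENCODE M21 on GRCm38. *Glul* spans chr1:153899944-153909723, about 9.78 kb, of which 34.0% is exonic. *Slc1a3* spans chr15:8634124-8710764 and *Slc1a2* spans chr2:102658659-102790784. The receptor genes are longer and almost wholly intronic, at chr10:49094833-49788766 for *Grik2*, chr4:125490700-125714173 for *Grik3*, chr14:34820108-35583379 for *Grid1* and chr9:4417896-4796234 for *Gria4*, with an exonic share between 0.781% for *Grid1* and 4.02% for *Grik3*. Annotated genes overlap *Slc1a2*, *Glul* and *Grid1* on the opposite strand. On the same strand they overlap every gene of the set but *Slc1a2*, with 6 for *Grik2*. Whether intronic reads were counted is not given in the sources used here, so levels were compared between cell types within a gene and not between genes.

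The sequence before the start of transcription also differs among these genes. The set of RefSeq starts used here covers 6 of the 7 genes, all but *Grid1*. The 250 bases before the start hold 1 CpG for *Slc1a2*, 2 for *Slc1a3*, 15 for *Glul*, 16 for *Gria4*, 20 for *Grik2* and 42 for *Grik3*, against a median of 6 over 32851 promoters. The start given for *Slc1a2* lies 47779 bases inside the gene model of GENCODE, so its window is not the only candidate. The promoters of *Slc1a3* and *Grik3* are shown because they are the CpG-poorest, apart from *Slc1a2*, and the CpG-richest of the set, and because these genes had different leading cell types. Capitals mark the GC box GGGCGG on either strand, which occurs in 32.7% of all promoters of this length and is present once in *Slc1a3* and *Glul* and 6 times in *Grik3*.
Slc1a3 (GRCm38.p6, chr15:8710808-8711057, minus strand): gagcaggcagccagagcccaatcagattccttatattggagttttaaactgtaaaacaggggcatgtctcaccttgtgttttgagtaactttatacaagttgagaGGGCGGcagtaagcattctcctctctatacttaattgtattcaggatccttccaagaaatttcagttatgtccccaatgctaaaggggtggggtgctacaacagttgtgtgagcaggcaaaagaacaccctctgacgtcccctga
Grik3 (GRCm38.p6, chr4:125490446-125490695, plus strand): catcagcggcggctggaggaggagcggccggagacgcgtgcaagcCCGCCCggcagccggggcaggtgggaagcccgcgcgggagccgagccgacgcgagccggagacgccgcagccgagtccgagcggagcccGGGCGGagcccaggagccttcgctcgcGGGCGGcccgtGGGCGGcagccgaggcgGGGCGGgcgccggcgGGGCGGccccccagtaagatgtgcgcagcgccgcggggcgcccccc

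Both replicates gave cells of the same 8 types at similar depth. Replicate 1 held 119101743 UMIs and replicate 2 held 128668771 UMIs, and 7997 and 8105 cells were retained. Of these 16102 cells, 14146 lay in clusters that took a name, with 6870 SGCs, 1385 non-myelinating Schwann cells (nmSCs), 3173 myelinating Schwann cells (mSCs), 109 neurons, 1116 fibroblasts, 707 mural cells, 354 macrophages and 432 endothelial cells. The types were named by marker pairs, so the levels of these genes are no independent check of the names. Of the 16 marker genes, 15 were highest in their own type. The exception was *L1cam* of the nmSC pair, at a mean of 191 CPM (its part of all UMIs summed, after scaling) in nmSCs and 199 CPM in neurons. Among the cells called, 135 barcodes occurred in both samples, of which 22 were in retained cells. The neurons were few and deep, with a median of 110283 and 92083.5 UMIs per cell in the replicates, and were led by the neuropeptide genes *Tac1* and *Calca*. UMIs were summed per replicate and type, and levels are CPM scaled by the trimmed mean of M values.

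All 7 genes were higher in SGCs when these were set against the mean of the other 7 types, beside a background of 33.0% of 17826 tested genes higher and 23.8% lower in the same comparison (edgeR quasi-likelihood test, adjusted p below the threshold of 0.05). This mean, as in all such contrasts below, is taken over log2 levels with each type weighted equally. A type can therefore be called higher than it and still lie below the mean of the CPM values. With total UMIs in place of the scaling factors, 4802 of all genes were higher and 5521 lower, against 5875 and 4243 as reported, the median difference of all genes moved to -0.11, and the 7 genes were called higher under either scaling. The median log2 difference was 2.76 over the 7 genes and 0.03 over all tested genes. The 7 genes were chosen with earlier results of these data known, so neither comparison with all genes is a test of enrichment. Among the 8 named types, only *Slc1a2*, *Grik3* and *Grid1* had their highest level in SGCs. *Slc1a3* was highest in fibroblasts, *Glul* in endothelial cells and *Grik2* in nmSCs, while *Gria4* was as high in neurons as in SGCs within its spread. The p-values rest on the spread between the 2 replicates within a type. That spread was pooled over the 8 types and drawn towards that of other genes, and profiles of the same replicate were treated as independent.

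**Figure D1:**
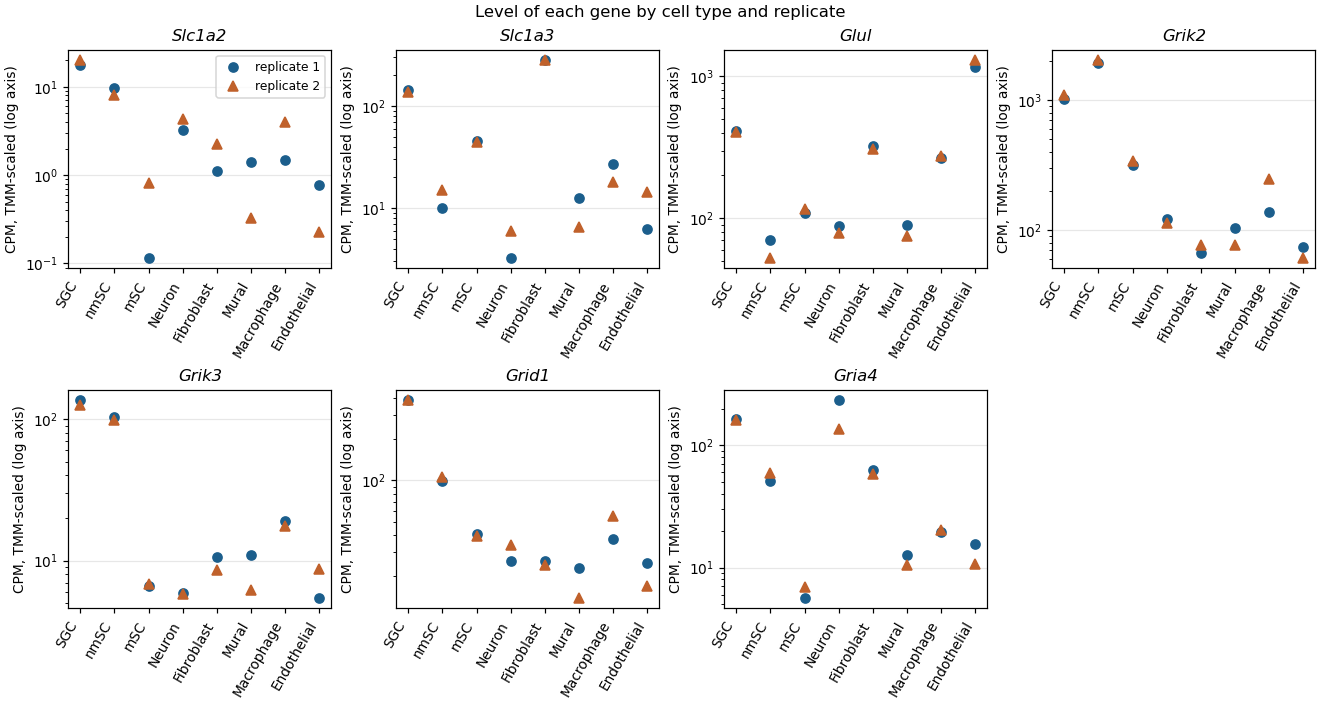
Level of each of the 7 genes (CPM with TMM scaling, log axis) in the 8 cell types. Each point is 1 replicate (circle, replicate 1; triangle, replicate 2), and the points of *Grid1* in SGCs, at 389 and 384 CPM, lie above those of every other type.

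*Slc1a2*, the transporter that carries out most glutamate uptake by astrocytes in the brain, was sparse but concentrated in SGCs. Its level was 17.6 and 20.2 CPM in SGCs of replicates 1 and 2 and 9.62 and 7.98 CPM in nmSCs. Neurons held 3.20 and 4.36 CPM. The other 5 types yielded few molecules of it, down to 3 and 1 UMIs in endothelial cells and 1 and 8 UMIs in mSCs. SGCs exceeded the mean of the other types by 3.50 ± 0.195 (SE) on the log2 scale (adjusted p = 4.3e-11, edgeR). The difference between SGCs and nmSCs was 1.11 ± 0.259 (adjusted p = 0.0028, edgeR), with no overlap between the replicates of the types. It was 0.20 (adjusted p = 1.0) when 54 cells were drawn per type and replicate, and 0.55 (adjusted p = 0.12) after clustering on log-normalized values. The nmSCs in turn exceeded the neurons by 1.21 ± 0.360 (adjusted p = 0.0072, edgeR), and no pair of neighbours further down the order differed beyond its spread.

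*Slc1a3*, the other glial glutamate transporter, had its highest level outside the glia. Fibroblasts held 283 and 279 CPM and SGCs 144 and 138 CPM, with no overlap. The difference between them was 0.99 ± 0.145 on the log2 scale (adjusted p = 1.3e-05, edgeR). Next came mSCs at 45.5 and 44.6 CPM, a type that SGCs exceeded by 1.65 ± 0.159 (adjusted p = 1.0e-07, edgeR). Non-myelinating Schwann cells held only 10.1 and 15.0 CPM, and neurons, with the lowest level, 3.20 and 5.94 CPM. The Schwann cell types were ordered oppositely for the transporters, since nmSCs minus mSCs was 4.14 ± 0.482 for *Slc1a2* and -1.83 ± 0.229 for *Slc1a3* (adjusted p = 1.8e-06 and 4.3e-06, edgeR). SGCs exceeded the mean of the other types by 2.76 ± 0.114 (adjusted p = 6.1e-13, edgeR).

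*Glul*, which encodes the enzyme that joins ammonia to glutamate, was highest in endothelial cells. Its level there was 1165 and 1308 CPM, against 415 and 403 CPM in SGCs, and the groups did not overlap. Endothelial cells exceeded SGCs by 1.60 ± 0.110 on the log2 scale (adjusted p = 6.3e-10, edgeR). Fibroblasts followed SGCs at 322 and 308 CPM, lower than SGCs by 0.38 ± 0.109 (adjusted p = 0.0067, edgeR). Macrophages, at 268 and 275 CPM, did not differ from fibroblasts beyond the spread (0.21 ± 0.117, adjusted p = 0.14, edgeR), though the replicates did not overlap. The scaling factors, 0.854 and 0.883 in macrophages and 1.03 and 1.05 in fibroblasts, narrow this gap. With factors of 0.910 and 0.925 in SGCs, they widen that between SGCs and fibroblasts. Neither comparison was refitted with total UMIs. Within the glia the level fell steeply from SGCs to mSCs, at 109 and 117 CPM, and to nmSCs, at 70.3 and 52.0 CPM, the lowest of the 8 types. Against the mean of the other types SGCs were higher by 1.23 ± 0.0749 (adjusted p = 1.5e-10, edgeR), the smallest difference of the 7 genes.

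*Grik2* and *Grik3*, subunits that can form kainate receptors together or with others, shared a pattern of high levels in SGCs and nmSCs. *Grik2* reached 1929 and 2036 CPM in nmSCs and 1021 and 1102 CPM in SGCs, with no overlap. The nmSCs were higher by 0.90 ± 0.164 on the log2 scale (adjusted p = 3.2e-04, edgeR), and by 0.99 (adjusted p = 0.059) when 54 cells were drawn per type and replicate. In mSCs *Grik2* stood at 319 and 337 CPM, below SGCs by 1.69 ± 0.169 (adjusted p = 1.6e-07, edgeR). Neurons held 121 and 113 CPM of it and were lower than the mean of the other types by 1.08 ± 0.145 (adjusted p = 3.2e-06, edgeR).

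*Grik3* was at 137 and 126 CPM in SGCs and at 104 and 99.3 CPM in nmSCs. This difference of 0.37 ± 0.106 on the log2 scale passed the test (adjusted p = 0.011, edgeR), but it was 0.12 (adjusted p = 0.39) with total UMIs in place of scaling factors, 0.30 (adjusted p = 0.11) when cells were called from UMI totals alone and 0.22 (adjusted p = 0.18) after clustering on log-normalized values. Macrophages came next at 19.1 and 17.5 CPM, below nmSCs by 2.47 ± 0.175 (adjusted p = 1.6e-09, edgeR). Unlike *Grik2*, *Grik3* was near its lowest in mSCs, at 6.62 and 6.86 CPM, where it did not differ from neurons at 5.90 and 5.76 CPM beyond the spread (0.21 ± 0.231, adjusted p = 0.44, edgeR). SGCs exceeded the mean of the other types by 2.55 ± 0.105 for *Grik2* and by 3.41 ± 0.0779 for *Grik3* (adjusted p = 5.9e-13 and 4.1e-16, edgeR).

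Among the named types, *Grid1* showed the widest gap between SGCs and the next type. The unnamed cluster led by *Pou3f1*, described below, lay between the SGC and nmSC clusters and was not ranked. GluD1, the product of *Grid1*, is a synaptic organizer that binds cerebellin proteins and does not gate a current in response to glutamate itself. SGCs held 389 and 384 CPM and nmSCs 99.6 and 107 CPM. The difference was 1.91 ± 0.137 on the log2 scale (adjusted p = 6.5e-09, edgeR). Levels in nmSCs were above those in macrophages, at 37.1 and 54.8 CPM, by 1.18 ± 0.187 (adjusted p = 4.1e-05, edgeR). In nmSCs *Grid1* stood at 26.7% of its SGC level and the 7 SGC markers, summed, at 25.6% of theirs, and the part of SGC RNA in this level was not tested. In mSCs *Grid1* stood at 40.8 and 39.6 CPM, within the range of the macrophages, and in neurons at 25.6 and 33.7 CPM. Against the mean of the other types SGCs were higher by 3.50 ± 0.0849 (adjusted p = 8.2e-16, edgeR).

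*Gria4* was the only one of the 7 genes with its highest mean in neurons among the named types. Its subunit forms calcium-permeable AMPA receptors when *Gria2* is missing. The unnamed *Pou3f1* cluster, described below, was not ranked. The neurons of the replicates lay apart, at 236 and 135 CPM, and the SGCs between them at 165 and 161 CPM. The difference between neurons and SGCs was 0.19 ± 0.160 on the log2 scale and did not pass the test (adjusted p = 0.30, edgeR). It was -0.25 without replicate 1 and 0.52 without replicate 2. With one UMI cutoff over all cells and a cluster of shallow neuron-like droplets kept, it was -0.52 (adjusted p = 0.085). Fibroblasts, at 62.9 and 58.7 CPM, and nmSCs, at 51.5 and 59.4 CPM, overlapped, and SGCs were above fibroblasts by 1.42 ± 0.171 (adjusted p = 1.3e-06, edgeR). At the other end were the mSCs with 5.60 and 6.86 CPM. SGCs exceeded the mean of the other types by 2.56 ± 0.118 (adjusted p = 2.9e-12, edgeR).

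The other types differed in how many of the 7 genes stood above or below the mean of the rest, taken over log2 levels. In nmSCs 5 were higher and 2 lower, *Slc1a3* and *Glul*, against 20.4% and 17.4% of all genes. In mSCs *Slc1a3* and *Grik2* were higher and 4 were lower, against 26.8% and 24.5%. In neurons *Gria4* and *Slc1a2* were higher and 5 lower, against 37.2% and 30.9%, and for *Slc1a2* the difference was small (0.85 ± 0.357, adjusted p = 0.043, edgeR). In fibroblasts *Slc1a3*, *Glul* and *Gria4* were higher and 3 lower, against 26.4% and 21.2%. Mural cells had 0 higher and 6 lower by edgeR, with all 7 differences below 0, against 21.9% and 19.6%. Endothelial cells had *Glul* higher and 6 lower, against 26.7% and 25.1%. In macrophages *Glul* was higher, *Gria4* lower and 5 genes did not pass, against 23.2% and 26.4%. Each contrast uses the same 16 profiles, so these counts are not independent of each other.

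**Figure D2:**
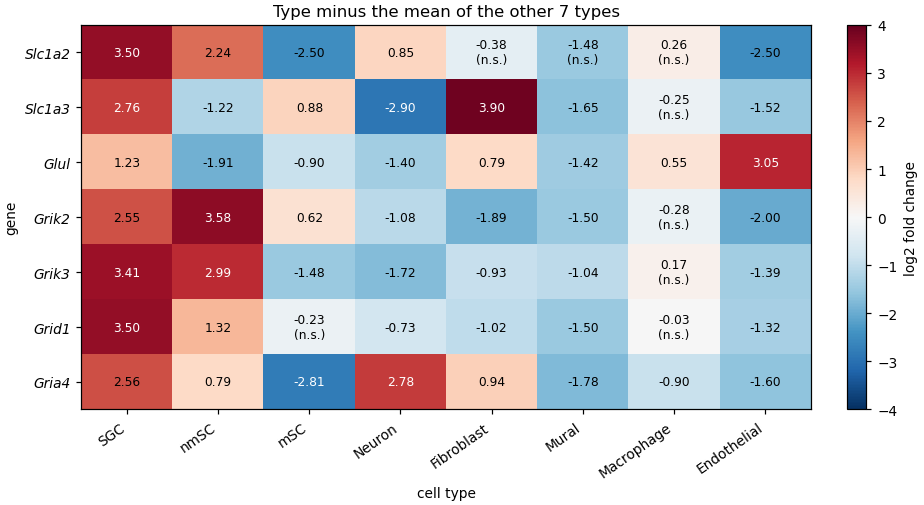
Log2 fold change of each gene (rows) in each cell type (columns) against the mean of the other 7 types, from the fit over 16 profiles, with n.s. where the adjusted p did not pass 0.05. The SGC column is positive for all 7 genes, from 1.23 for *Glul* to 3.50 for *Slc1a2* and *Grid1*.

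In mural and endothelial cells the low levels of the receptor genes fell when cells that resembled computed doublets were left out. SGCs made up 42.7% of the retained cells, so many computed doublets hold SGC RNA. Leaving out cells that resemble them can therefore lower any gene that is high in SGCs. The source of the RNA was not tested for any gene or type. In mural cells *Grik2*, *Grik3*, *Grid1* and *Gria4* stood at between 4.75% and 8.54% of their SGC level, and in endothelial cells at between 5.36% and 8.05%. The summed level of the 7 SGC markers, each of which had UMIs in both types, was 13873 and 14390 CPM in SGCs, 754 and 628 CPM in mural cells and 1117 and 1025 CPM in endothelial cells, or 4.89% and 7.58% of the SGC level. The marker sum of every type was scaled to total UMIs only, whereas the levels of the genes also carry TMM factors. Their percentages are therefore not on the same scale. When cells that resembled computed doublets were left out, the mean of *Grid1* went from 18.4 to 5.78 CPM in mural cells, from 20.9 to 5.40 CPM in endothelial cells and from 25.0 to 11.7 CPM in fibroblasts. *Grik2* went from 90.7 to 32.0 CPM in mural cells and from 67.2 to 26.8 CPM in endothelial cells. *Slc1a3* and *Gria4* of fibroblasts, at 281 and 60.8 CPM, were 282 and 57.2 CPM without these cells, and *Glul* of endothelial cells was 1237 CPM with and 1254 CPM without them. Of the retained neurons 0 were marked as doublets, and *Gria4* was 186 and 183 CPM, *Grik2* 117 and 116 CPM and *Grid1* 29.7 and 29.3 CPM with and without these cells in the other types. In macrophages, where the summed SGC markers were at 8.87% of the SGC level, the 4 receptor genes stood higher, at between 11.9% and 18.1%, and *Grik2* was at 192 CPM with and 150 CPM without the doublet-like cells.

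RNA found in empty droplets was also subtracted. It was estimated to make up between 1.89% and 3.90% of the UMIs of a profile, and the droplets without cells held 441 and 469 CPM of *Grik2* and 308 and 303 CPM of *Glul* in the 2 replicates. After its subtraction *Gria4* in mSCs went from 6.23 to 3.40 CPM and *Slc1a3* in neurons from 4.57 to 2.49 CPM. The level of *Grid1* in mural cells was 15.7 CPM, against 18.4 CPM before. All 7 genes were called higher in SGCs with doublet-like cells left out and with the RNA of empty droplets subtracted.

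**Figure D3:**
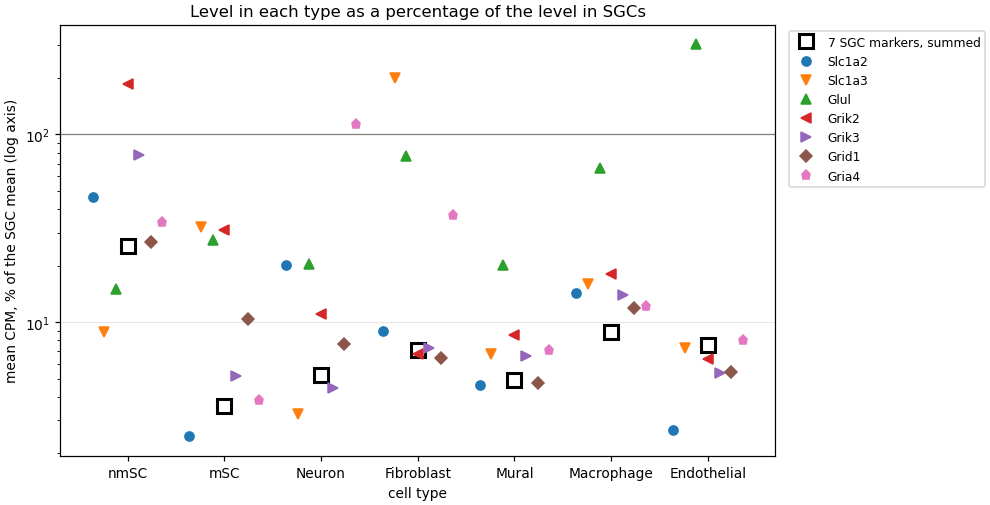
Mean level of each gene in the other 7 types as a percentage of its mean level in SGCs (log axis, both replicates averaged), with the sum of the 7 SGC markers as open squares. The genes are scaled with TMM and the marker sum to total UMIs only. Most points of mural and endothelial cells lie near the square of their type. The points above the line at the SGC level are *Glul* in endothelial cells (302%), *Slc1a3* in fibroblasts (199%), *Grik2* in nmSCs (187%) and *Gria4* in neurons (114%).

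Each cell was also thinned to 1000 UMIs, which removes the difference in depth between types, and the share of cells with a UMI was counted. *Grik2* was detected in 55.7% and 58.7% of SGCs of replicates 1 and 2 and in 75.0% and 78.6% of nmSCs, against 4.18% and 3.55% of mural cells. *Grid1* was detected in 27.6% and 29.5% of SGCs and 7.58% and 7.41% of nmSCs, against 0.783% and 0.645% of mural cells. *Glul* was found in 49.2% and 59.8% of endothelial cells and in 25.1% and 25.7% of SGCs. For these 3 genes the type with the highest share was also the type with the highest level.

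The other 4 genes were rarer, with wide intervals in small types. *Slc1a3* was detected in 21.8% and 19.6% of fibroblasts and in 11.8% and 11.2% of SGCs. *Grik3* was found in 12.1% and 9.46% of SGCs and 10.0% and 9.51% of nmSCs, whose exact 95% binomial intervals overlapped. *Gria4* was present in 18.2% of 55 neurons (9.08 to 30.9) and 13.0% of 54 neurons (5.37 to 24.9), and in 12.9% and 12.3% of SGCs. *Slc1a2* was seen in 1.17% and 1.90% of SGCs and in 1.36% and 0.420% of nmSCs, which do not separate at this depth, and in 0 of 55 and 0 of 54 neurons, where 3 cells, the limit that a count of 0 allows, would be 5.45% and 5.56% and the exact intervals reach 6.49% and 6.60%. This covers thinned cells only, since without thinning 18.2% and 29.6% of the neurons, at their far greater depth, held a UMI of it. Without thinning, at a median of 15158 UMIs per SGC, the shares of SGCs were 99.2% for *Grik2*, 94.3% for *Grid1*, 85.6% for *Glul*, 74.0% for *Grik3*, 71.7% for *Slc1a3*, 60.5% for *Gria4* and 18.5% for *Slc1a2*. The intervals cover counting error only.

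**Figure D4:**
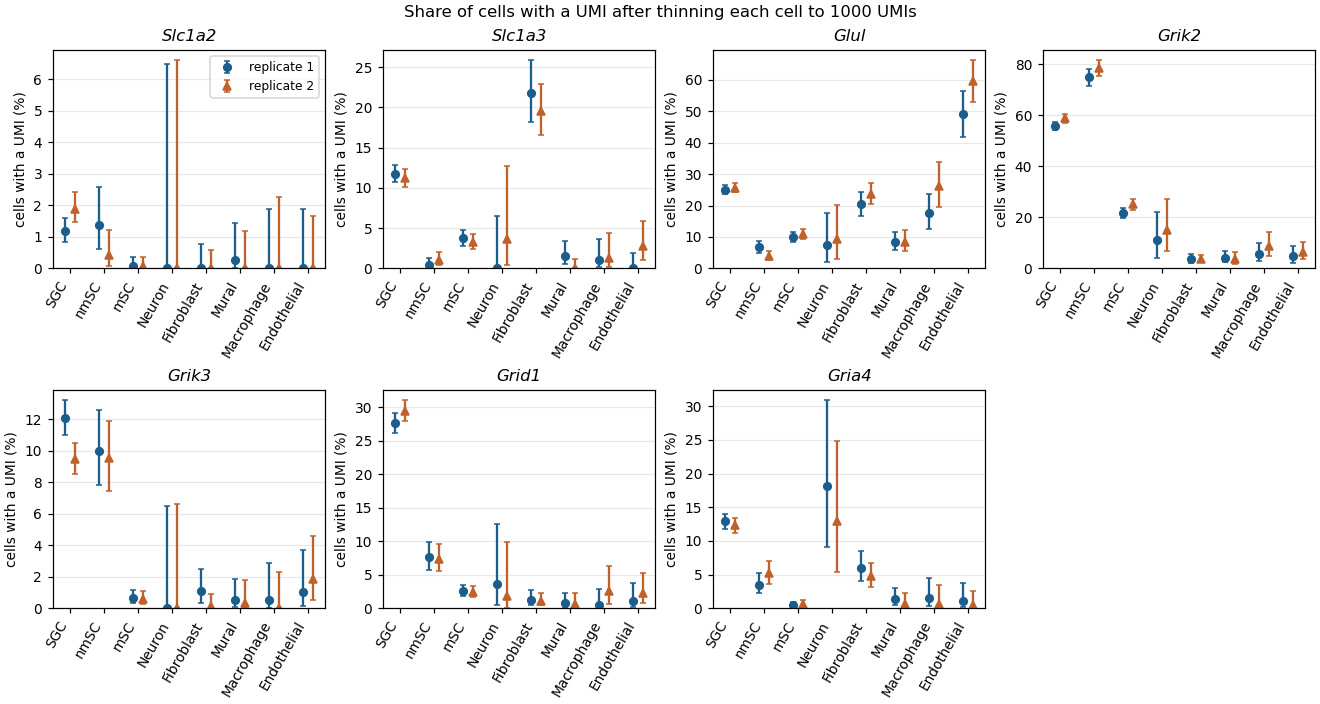
Share of cells with at least 1 UMI of each gene after thinning to 1000 UMIs per cell, by type and replicate (circle, replicate 1; triangle, replicate 2), with exact binomial 95% intervals. *Slc1a2* does not exceed 1.90% in any type, and *Grik2* reaches 78.6% in nmSCs of replicate 2.

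Within the SGCs, *Slc1a2* and *Glul* ran opposite to *Grik2* between 2 pairs of the 4 clusters, which were made without the genes of the glutamate list. A cluster led by *Hes5* and *Acsbg1* and one led by *Acsbg1* and *Gm42418* held 21.6 and 24.7 CPM and 28.2 and 31.6 CPM of *Slc1a2*, scaled to the total UMIs of the cluster in replicates 1 and 2. The clusters with *Dbi* and *Myo16* and with *Ednrb* and *Lgr5* among their leading genes held 10.4 and 12.2 CPM and 6.92 and 8.59 CPM. *Glul* followed the same split, at 532 and 510 CPM and 431 and 414 CPM in the first pair of clusters and 223 and 209 CPM and 293 and 259 CPM in the second pair.

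*Grik2* went the other way. It stood at 585 and 680 CPM in the *Hes5* cluster, 888 and 934 CPM in the *Gm42418* cluster, 1092 and 1259 CPM in the *Dbi* cluster and 1302 and 1413 CPM in the *Lgr5* cluster. *Gria4* had its lowest mean in the *Hes5* cluster, at 117 and 112 CPM, and its highest in the *Dbi* cluster, at 182 and 194 CPM. *Slc1a3* and *Grid1* were nearly level, with a ratio of the highest to the lowest cluster mean of 1.11 and 1.18, against 3.86 for *Slc1a2*, 2.41 for *Glul* and 2.15 for *Grik2*. Clusters come from the same cells, so these values are descriptions without a test.

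A cluster of 1504 cells, before cells were filtered, led by *Pou3f1*, with *Ednrb* among its leading genes, took no type name because fewer than 3 markers of a type led it. Its values extended the trend of *Grik2*, at 1863 and 2057 CPM. *Gria4*, at 222 and 228 CPM, was above all 4 SGC clusters in both replicates. *Glul*, at 69.0 and 67.2 CPM, and *Slc1a2*, at 3.68 and 3.17 CPM, were below all 4. *Grid1*, at 287 and 301 CPM, was below the SGC clusters but above the nmSC cluster at 108 and 117 CPM. When these cells were added to the SGCs, all 7 genes were still called higher in SGCs.

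**Figure D5:**
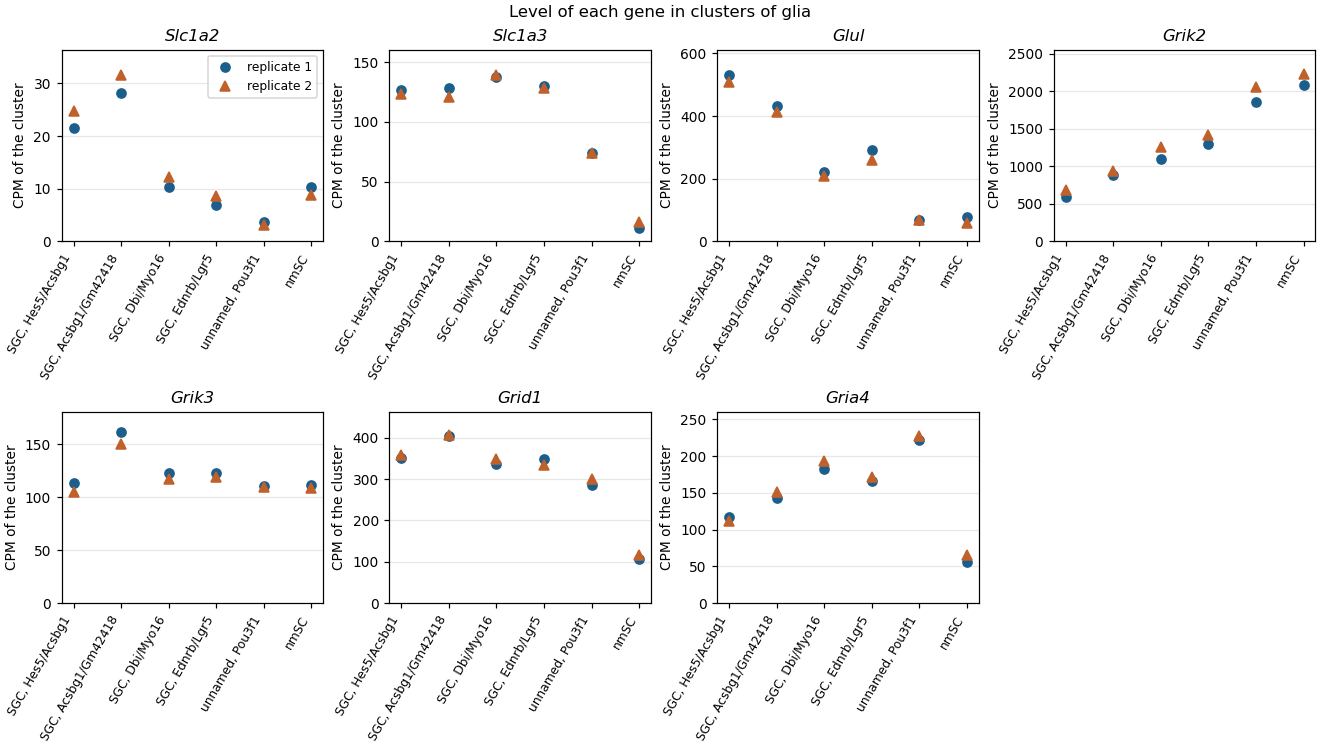
Level of each gene (CPM of the cluster without TMM scaling) in the 4 SGC clusters, the unnamed cluster led by *Pou3f1* and the nmSC cluster, with 1 point per replicate (circle, replicate 1; triangle, replicate 2). Levels of *Glul* are highest in the *Hes5* cluster, while *Grik2* rises from left to right from 585 and 680 CPM to 2085 and 2237 CPM.

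Fibroblasts were also split. *Slc1a3* stood at 463 and 427 CPM in the fibroblast cluster led by *Apod* and *Dcn* and at 94.8 and 62.8 CPM in the one led by *Mgp* and *Ecrg4*, and *Gria4* at 102 and 86.2 CPM and at 22.2 and 19.3 CPM. *Glul* ran slightly the other way, at 300.3 and 298 CPM and at 370 and 363 CPM. An unnamed cluster led by *Igfbp6*, in which 2 perineurial markers were also among the leading genes, held 42.8 and 43.9 CPM of *Slc1a3* and 510.1 and 495 CPM of *Glul*.

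Of the 72 genes of a wider glutamate list, 60 passed the filter on low counts and 12 did not, and 24 of the 60 were higher and 9 lower in SGCs in the same contrast, in which 33.0% and 23.8% of all genes were called. The 24 include the 7 genes above. Besides *Slc1a2* and *Grid1*, the gene of the list that stood out most in SGCs by the naming rule was *Cacng4*, an auxiliary subunit of AMPA receptors, at 99.3 and 98.9 CPM against a mean of 14.6 CPM in fibroblasts, the next type. Both delta receptor genes were higher in SGCs, as were 3 of 5 kainate and 2 of 4 AMPA receptor genes, sets too small to be read against the 33.0% of all genes. The median log2 difference was 0.17 over the 60 genes and 0.03 over all tested genes. Of the exchange transporters tested, 2 of 5 were higher and 2 lower.

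The other types led different genes of the list. Neurons had 43 of the 60 higher and 9 lower, against 37.2% and 30.9% of all genes, with *Gria1*, an AMPA receptor subunit, at 143 and 171 CPM, *Cacng3* at 12.6 and 6.11 CPM and *Cbln2*, a cerebellin, at 2.70 and 21.3 CPM. In nmSCs, where all 5 kainate receptor genes were higher, *Gpt2*, an alanine transaminase, was at 176 and 173 CPM and *Gria3* at 229 and 249 CPM. Fibroblasts led the NMDA receptor genes *Grin2b*, at 26.4 and 39.9 CPM, and *Grin2a*, at 9.48 and 9.69 CPM. Endothelial cells led *Grm8*, at 322 and 268 CPM, and the uptake transporter *Slc1a1*, at 27.8 and 26.5 CPM. Macrophages led the glutamine transporter *Slc38a1* at 152 and 149 CPM, whereas no gene of the list was both called higher and highest in mural cells or mSCs. In nmSCs 15 of the 60 were higher and 15 lower, against 20.4% and 17.4% of all genes, and in fibroblasts 23 and 12, against 26.4% and 21.2%. The lower calls outnumbered the higher in mSCs, with 8 higher and 20 lower against 26.8% and 24.5%, and in mural cells, with 11 and 20 against 21.9% and 19.6%. The same held in macrophages, with 5 and 15 against 23.2% and 26.4%, and in endothelial cells, with 8 and 23 against 26.7% and 25.1%.

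The genes most like each of the 7 over the 16 profiles were ranked by Pearson's r of log2(CPM + 1), where profiles share their libraries. *Slc1a2* was most like *Enho*, *Anks1b* and *Csdc2* (0.96, 0.96 and 0.96), and *Grid1* most like *Nkain4*, *Scd1* and *Acsbg1* (0.98, 0.96 and 0.96). *Grik3* was most like *Ptprz1*, an SGC marker, with *Dhrs2* and *Mmd2* (0.97, 0.97 and 0.97), and *Grik2* most like *Kcnh8*, *Adgrb3* and *Prdm16os* (0.96, 0.96 and 0.96). The order of *Gria4* was closest to *Srcin1*, *Cntfr* and *Cobl* (0.98, 0.96 and 0.93). *Slc1a3* had *Bmp7*, *D730045B01Rik* and *Smoc1* (0.93, 0.93 and 0.92), and *Glul* had *Crispld1*, *Tspan5* and *Fancb* (0.90, 0.90 and 0.90). Among the 7 genes themselves r was highest between *Grid1* and *Grik3* (0.90) and lowest between *Glul* and *Grik2* (-0.33).

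Within single SGCs most pairs of the genes were found together about as often as their shares alone would give. *Glul* and *Grik2* were found together less often than that in both replicates. Over the thinned cells, 16 of the 21 pairs had at least 20 cells with both genes in each replicate, and the share of cells with both, divided by the product of the single shares, lay between 0.82 and 1.23 for these pairs. The lowest ratio was that of *Glul* and *Grik2* in replicate 1, where 402 of 3497 cells, or 11.5%, held both against a product of 14.0%. In replicate 2 the same pair was in 447 of 3372 cells, or 13.3%, against a product of 15.1%. Counts per cell are sparse at this depth, and no test was made.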

How the data were processed

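The authors prepared libraries with the 10x Genomics 3′ chemistry from sorted live cells and deposited UMI counts per gene and barcode for all barcodes, made with Cell Ranger 7.1.0 (per the file headers) on the mm10 build, which matches GRCm38. Whether introns were counted is not given in the sources used here. Of the gene identifiers, 32158 matched GENCODE M21.

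Cells were called per replicate from UMI totals and from the difference to barcodes ranked 45000 to 90000, kept above 300 genes, and clustered in Seurat 5.3.0 (sctransform 0.4.2, R 4.3.3) on 3000 variable genes, without the 72 genes of the glutamate list, with 30 components at resolution 0.8. A cluster was named for its highest marker pair if its 50 leading genes held 3 or more markers of that name, unless another list had more, or a list outside the 8 types had 2 or more and the name fewer than 2 times as many. Clusters led by mitochondrial genes, with under 1000 genes per cell on average (424 shallow neuron-like droplets) or with over 50% of cells marked as doublets by Scrublet in scanpy 1.11.5 were left out, as were cells above the median plus 5 median absolute deviations in mitochondrial share, or in UMIs within their cluster. The last rule replaces one cutoff over all cells, which would remove deep neurons. The naming and the doublet rule were set after the data were seen.

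Counts were summed per replicate and type and fitted with edgeR 4.0.16 (TMM, quasi-likelihood) over genes that reached 10 UMIs in 2 or more of the 16 profiles, leaving 8 residual degrees of freedom. P-values were adjusted by Benjamini and Hochberg over all 17826 genes. Each SE was derived from the test, as the size of the log2 difference divided by the square root of its F statistic. The test was tried on simulated data with known changes. DESeq2 1.42.0 was an alternative. Profiles of the same number come from the same dissociated cells. Their deviations from the type means correlated with a median r of 0.05 over 28 pairs of types (-0.01 to 0.18).

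The 7 genes and the lists were chosen with earlier results of these data known. Genes named besides the 7 were, per type, the up to 3 of the glutamate list with the largest difference among those called higher and highest in both replicates, the 3 most correlated with each gene, marker pairs and leading genes of clusters.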

Additional observations from a re-analysis of the deposited data

How the results depend on the processing

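In SGCs set against the other types, all 7 genes were higher and 0 lower under each of the 17 other settings tried, which covered DESeq2, other scalings and filters, a replicate block, doublets, empty droplets, cell calling, clustering, equal numbers of cells and 4 settings chosen after seeing the data. Counts of all genes moved with equal numbers of cells (2196 higher and 1131 lower) and with the other cells summed into 1 profile (6854 lower), where numbers of cells or the reference change. On the glutamate list, 16 genes were lower with DESeq2, 5 with the RNA of empty droplets subtracted, 37 with the other cells as 1 profile, and 14 were higher and 3 lower with equal numbers of cells. The cause was not tested. Among the comparisons of the highest with the next type, *Grik2* in nmSCs against SGCs missed the threshold with equal numbers of cells (0.99, adjusted p = 0.059), as did *Slc1a2* in 2 settings and *Grik3* in 4. *Gria4* in neurons minus SGCs was -0.52 with one UMI cutoff over all cells and the shallow neuron-like cluster kept, and between -0.25 and 0.52 with either replicate left out, and it passed in no setting (adjusted p of 0.055 to 0.85). With the replicate block, 5928 genes were higher and 4324 lower in SGCs, 26 and 10 of the list. The pairing was refitted only for SGCs against the other types and for the highest against the next type. In these it changed no call of the 7 genes, and the other calls named above were not refitted with it. Leaving out a replicate gives values without a test, so no counts. Depth limits *Slc1a2* in endothelial cells and mSCs, where 1 to 8 UMIs were counted per replicate.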
